A study of Homo sapiens with 12 samples.

Results

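The collagen and laminin genes are the chains from which cells build most of the fibrous and sheet-like scaffold around them. They were taken as the protein-coding genes of the expression table whose symbol, matched by Ensembl identifier, is COL, a number, A and a number, or LAM, then A, B or C and a digit. This gave 56 genes of 19876 protein-coding genes and of 60664 identifiers in all, and every one was kept whatever its level. By their known products, 11 are fibrillar collagens, 8 are collagens of the basement membrane, 25 are other collagens and 12 are laminins.

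RNA sequencing was done on 12 libraries from human hepatoma lines, in 4 groups of 3. Huh-7 is known for secreting liver plasma proteins, and MHCC-97H was derived from hepatocellular carcinoma. Each line was transfected either with si-NC, a control small interfering RNA, in cells labelled WT, or with si-CENPU, a small interfering RNA against the centromere protein gene CENPU, in cells labelled as its knockdown. All 4 groups were transfected and grown in DMEM with fetal bovine serum, so no group is untreated, and the label "tissue" names the tumour of origin although the samples are cell lines. A difference between Huh-7 and MHCC-97H is a difference between these cultures only. The labels do not tell whether the 3 libraries of a group are separate cultures. A p-value here therefore covers the spread among libraries alone, and that spread may be technical.

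As background, each collagen is a triple helix of 3 alpha chains, some with identical chains and some with different ones. Fibrillar collagens assemble into the cables of tendon, bone, cartilage and scar, while type IV collagen forms the mesh of the basement membrane, the thin sheet under epithelia and around vessels. A laminin joins 1 alpha, 1 beta and 1 gamma chain into a cross-shaped molecule that polymerises in the same sheet and is bound by integrins and dystroglycan on the cell surface. In liver, hepatic stellate cells are the best-known source of fibrillar collagen in scarring, and the normal hepatocyte plate has no continuous basement membrane.

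Values are TPM (transcript abundance), which are scaled per length and to a fixed total per library, so levels of different genes can be set side by side. TPM keeps no sequencing depth, so depth is unknown and no counting interval is given, and an exact 0 can be a failed estimate. Between 18639 and 20900 identifiers per library lay above 0. CENPU itself stood at 0.643 ± 0.171 TPM under si-NC and 0.243 ± 0.181 TPM under si-CENPU in Huh-7 (SD, n = 3), 62.2% lower. The MHCC-97H means were 0.963 ± 0.181 and 0.303 ± 0.127 TPM (SD, n = 3), 68.5% lower. The groups did not overlap in either line, and the two-sided exact permutation p was 0.1 in each, the smallest that 3 against 3 libraries allow. Huh-7 si-NC replicate 1 stood apart, with a mean correlation of 0.965 with the other Huh-7 libraries against 0.974 to 0.978 for the rest of that line. Of 11 hepatocyte and hepatoma markers, 10 reached 1 TPM in Huh-7 but only KRT8 and KRT18, keratins of simple epithelia, did so in MHCC-97H, where albumin (ALB) was at most 0.03 TPM. The 11 stellate cell and fibroblast markers summed to 0.62 to 1.9 TPM in Huh-7 and to 3.06 to 4.51 TPM in MHCC-97H. PDGFRB and DES reached 1 TPM there, while FAP and POSTN were listed at 0 in both lines and PDGFRA and LUM in MHCC-97H. The 6 endothelial markers summed to at most 0.68 TPM. Of the 6 leukocyte markers, PTPRC matched no gene of the expression table by symbol and has no value. The others summed to 39.0 to 49.9 TPM in Huh-7 and 15.9 to 19.7 TPM in MHCC-97H, mostly from CD68. The 4 cholangiocyte markers split between the lines. KRT7 read 510 to 594 TPM in MHCC-97H and at most 0.44 TPM in Huh-7, while KRT19 read 181 to 212 TPM in Huh-7 and at most 0.46 TPM in MHCC-97H. EPCAM read 4.63 to 9.45 TPM in Huh-7 and 0.62 to 2.07 TPM in MHCC-97H, and SOX9 4.04 to 8.44 TPM and at most 0.06 TPM. These markers move with the line as the members do, and their part in the line differences was not tested. In bulk RNA, fewer cells of a type and less RNA per cell cannot be told apart.

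Both lines expressed collagen and laminin genes. A different gene led each of the collagen classes in each line, while LAMA5 led the laminins of both. In Huh-7 the 56 genes summed to 292 ± 35.5 TPM and in MHCC-97H to 420 ± 23.0 TPM (SD over 6 libraries of 2 treatments). Fibrillar collagens made up 144 ± 19.9 TPM of this in Huh-7 and 22.9 ± 3.69 TPM in MHCC-97H. Basement membrane collagens stood at 32.4 ± 4.31 and 96.9 ± 11.9 TPM, other collagens at 50.7 ± 5.31 and 152 ± 8.42 TPM, and laminins at 64.9 ± 7.77 and 148 ± 9.34 TPM. For each of the 4 classes, no library of one line reached the range of the other. Many chains were near silence: 28 of the 56 genes stayed below 1 TPM in every library, and COL6A5, COL21A1 and COL23A1 were listed at 0 in all 12. In Huh-7, 13 genes were at or above 1 TPM in all 6 libraries, and in MHCC-97H 17 were. COL2A1, COL3A1, COL5A2 and LAMA4 were so in Huh-7 while below 1 TPM in every MHCC-97H library. COL4A1, COL5A1, LAMA1, LAMB3 and LAMC3 were so in MHCC-97H while below 1 TPM in every Huh-7 library. At or above 1 TPM in all 12 libraries were COL6A1, COL9A2, COL18A1, COL26A1, LAMA5, LAMB1, LAMB2 and LAMC1.

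**Figure D1:**
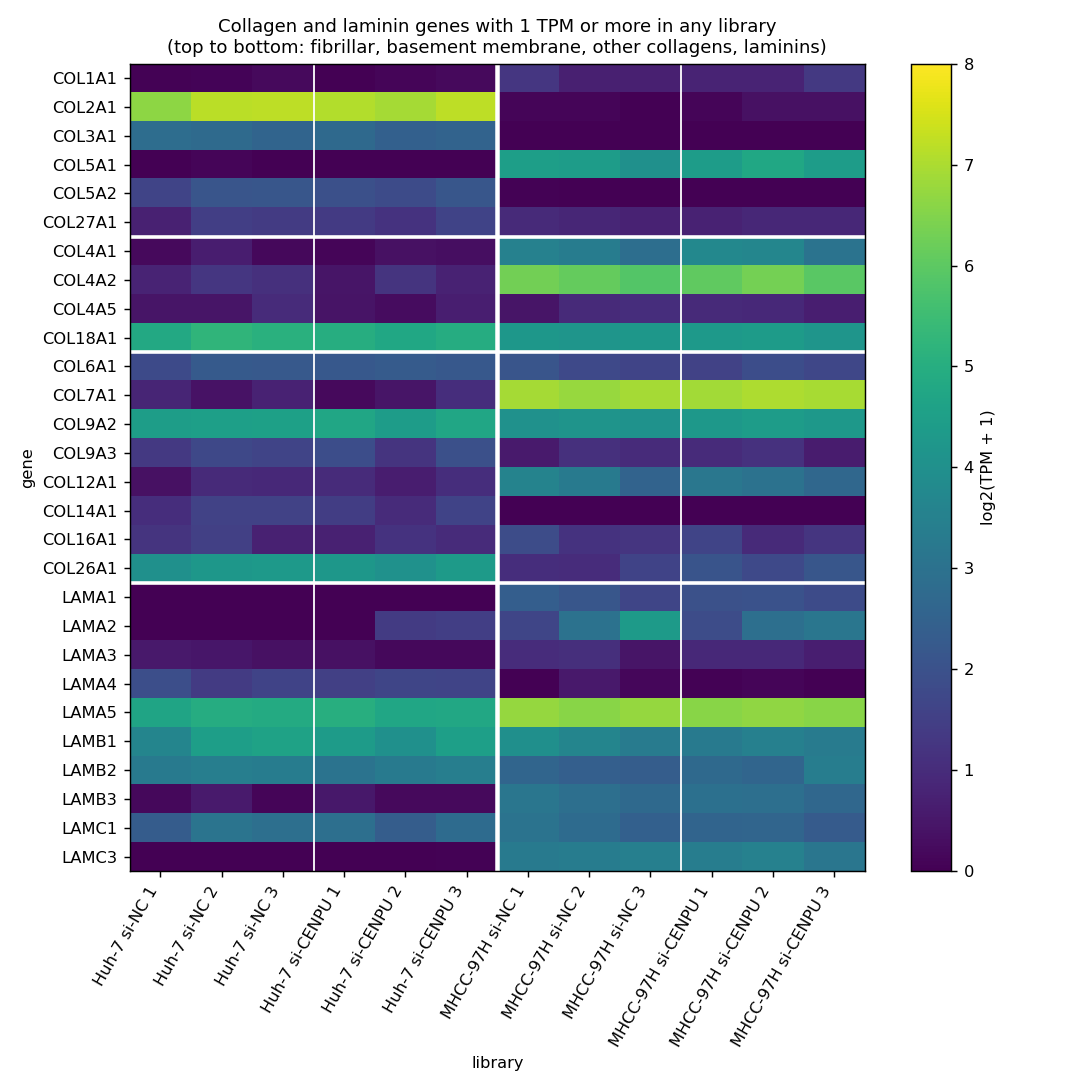
Expression on the log2(TPM + 1) scale (colour) of the 28 genes that reached 1 TPM in any library (rows, ordered by class) in the 12 libraries (columns). The lines differ in blocks that run across all 6 libraries, such as COL2A1 in Huh-7 and COL7A1 and COL4A2 in MHCC-97H, and none of the tested genes was called between the si-NC and si-CENPU columns of a line.

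**Figure D2:**
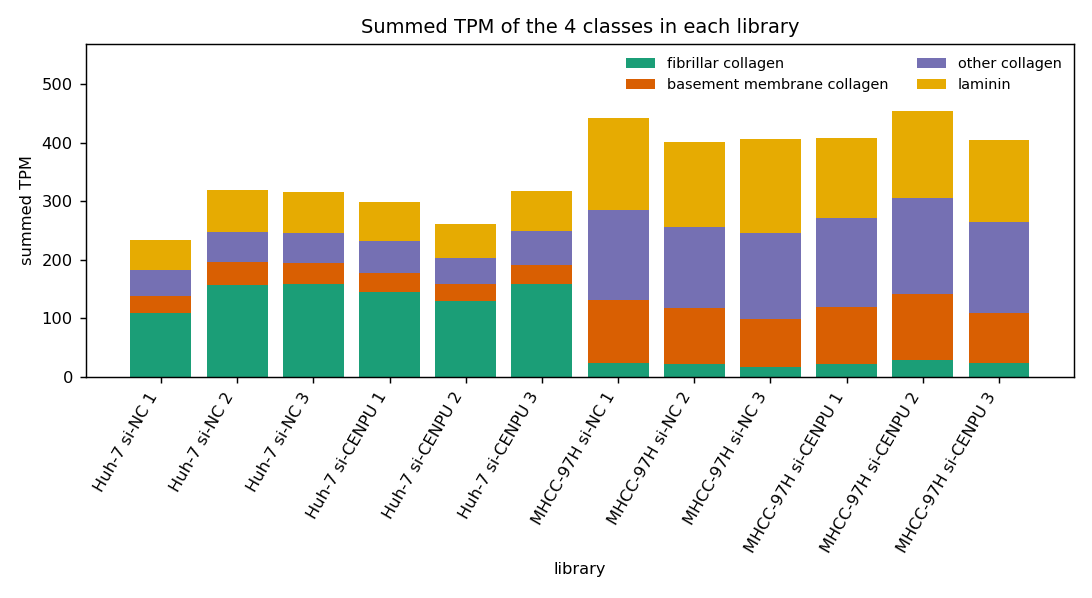
Summed TPM of the 4 classes (stacked bars) in each of the 12 libraries. Fibrillar collagens form the largest block in every Huh-7 library and the smallest in every MHCC-97H library.

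Differences were tested with limma on log2(TPM + 1) over all genes with a mean of at least 1 TPM, with p-values adjusted by the Benjamini-Hochberg method over the 11088 genes tested. A gene was called at an adjusted p below 0.05. Changes on this scale understate those of low genes. The test reached 24 of the 56 members (5 fibrillar, 3 basement membrane, 7 other collagens and 9 laminins), and the other 32 lay under the limit. A member that passed the limit only through the line in which it is high had to differ between the lines. The counts below therefore describe these genes and carry no weight on their own. The same holds for the adjusted p-values of line differences of such members, among them COL3A1, COL5A2, LAMA1 and LAMC3. Just under the limit lay LAMA3, COL4A5 and COL14A1 at means of 0.544, 0.638 and 0.822 TPM, and just over it LAMA4, COL27A1 and COL16A1 at 1.12, 1.15 and 1.37 TPM.

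With si-NC, 10 of the 24 were called higher in MHCC-97H, where 50.1% of all tested genes were, and 10 were called lower, where 22.9% were. With si-CENPU, in separate libraries, 10 were called higher (background 46.2%) and 11 lower (background 23.9%). All 4 groups were fitted together, so the calls of both comparisons share the estimate of spread per gene and the limit on level. The 10 higher genes were the same in both: COL4A1, COL4A2, COL5A1, COL7A1, COL12A1, LAMA1, LAMA2, LAMA5, LAMB3 and LAMC3. Called lower in both were the 9 genes COL2A1, COL3A1, COL5A2, COL9A2, COL9A3, COL18A1, COL26A1, LAMA4 and LAMB1. The whole transcriptome was shifted between the lines on this scale, with a median over all tested genes of 0.49 with si-NC and 0.40 with si-CENPU, against -0.13 and -0.25 for the 24 members. Trimmed-mean scaling brings the median of all genes to about 0. It also moves the share of higher genes among all called genes from 68.6% to 49.1% with si-NC and from 65.9% to 48.4% with si-CENPU (5557 higher and 2542 lower against 3742 and 3881, and 5125 and 2647 against 3653 and 3894). Quantile normalization gave 55.2% and 54.6%. Under both scalings the members split into 10 higher and 13 lower with si-NC and 9 and 13 with si-CENPU. The differences below are as fitted, and for the leading genes the value beyond the median of all genes is given too.

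**Figure D3:**
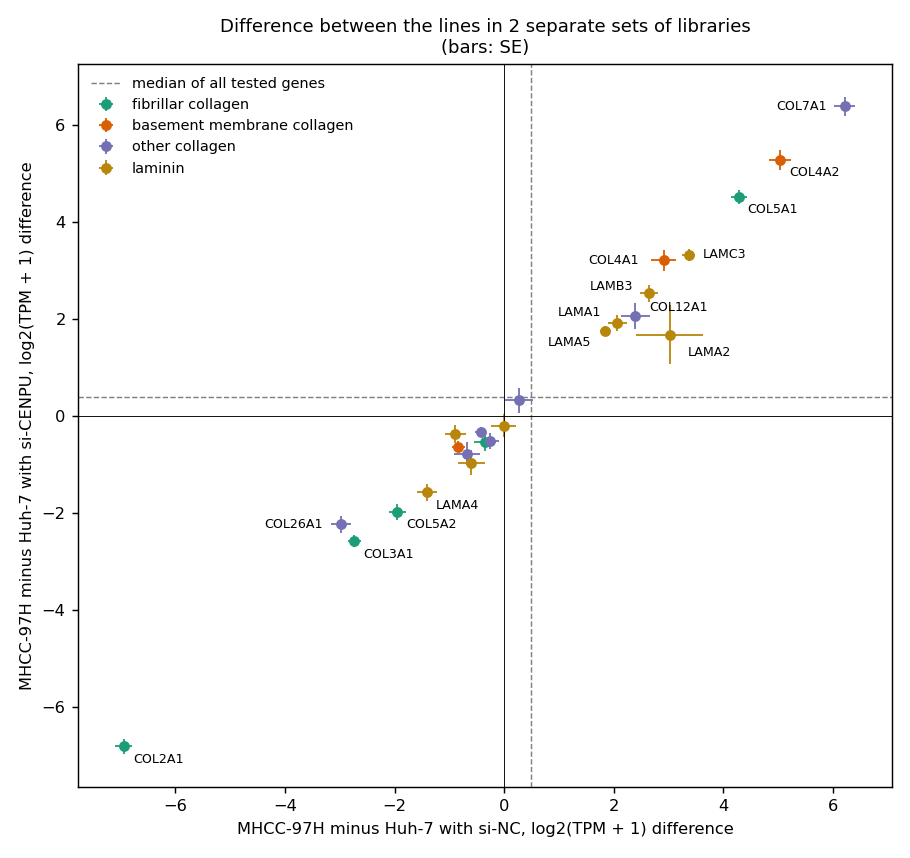
Difference between MHCC-97H and Huh-7 in log2(TPM + 1) for the 24 tested genes, measured in the si-NC libraries (horizontal) and in the si-CENPU libraries (vertical), with SE bars. Dashed lines mark the median of all tested genes; COL7A1 and COL4A2 lie at the upper right and COL2A1 at the lower left.

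Among the fibrillar collagens, Huh-7 was dominated by COL2A1, the chain of type II collagen, which is best known as the main fibril of cartilage. COL2A1 (ENSG00000139219; GRCh38 chromosome 12, 47972965 to 48004554, minus strand) gave 99.71, 144.20 and 147.63 TPM in Huh-7 with si-NC and 134.74, 121.25 and 147.83 TPM under si-CENPU. In MHCC-97H it read 0.09, 0.08 and 0 TPM under si-NC and 0.08, 0.28 and 0.28 TPM under si-CENPU. The lines were far apart and the treatments overlapped within each line. Its mean of 133 TPM over the 6 Huh-7 libraries ranked 641 among the 19876 protein-coding genes, and it made up 92.3% of the fibrillar collagen TPM of that line. The line difference was -6.94 (SE 0.15, adjusted p = 5.0e-12) with si-NC and -6.80 (SE 0.15, adjusted p = 6.0e-12) with si-CENPU, or -7.43 and -7.21 beyond the median of all genes.

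COL3A1 and COL5A2, which lie tail to tail on chromosome 2 with 19.1 kb between them and no protein-coding gene in that gap, were both present in Huh-7 and close to 0 in MHCC-97H. COL3A1 encodes type III collagen of soft tissues and vessels, and COL5A2 a chain of type V collagen, which sits inside type I fibrils and limits their width. COL3A1 read 6.25, 5.83 and 5.03 TPM in Huh-7 with si-NC, 5.59, 4.46 and 4.88 TPM under si-CENPU, and at most 0.01 TPM in any MHCC-97H library. COL5A2 read 2.10, 3.36 and 3.41 TPM, then 2.89, 2.52 and 3.43 TPM, and at most 0.03 TPM in MHCC-97H. Their line differences were -2.73 and -2.58 for COL3A1 (SE 0.12 each, adjusted p = 2.8e-09 and 4.8e-09) and -1.95 and -1.97 for COL5A2 (SE 0.16 each, adjusted p = 5.6e-07 and 5.1e-07).

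COL5A1, the usual partner chain of COL5A2 in type V collagen, had the opposite pattern. It read 21.44, 20.42 and 15.22 TPM in MHCC-97H with si-NC and 20.21, 26.02 and 20.36 TPM under si-CENPU. In Huh-7 it was listed at 0 in 5 libraries and at 0.07 TPM in si-NC replicate 2. COL5A1 thus made up 90.1% of the fibrillar TPM of MHCC-97H, and in neither line did both chains of the usual heterotrimer reach 1 TPM. The difference was 4.28 with si-NC (SE 0.15, adjusted p = 2.6e-10) and 4.53 with si-CENPU (SE 0.15, adjusted p = 1.5e-10), or 3.78 and 4.12 beyond the median of all genes. The 250 bases before the start of COL5A1 are shown because this gene leads the fibrillar class of MHCC-97H (RefSeq, GRCh38.p14, chr9:134641553-134641802, plus strand). Capitals mark matches to the GC box, searched as GGGCGG on either strand.
COL5A1: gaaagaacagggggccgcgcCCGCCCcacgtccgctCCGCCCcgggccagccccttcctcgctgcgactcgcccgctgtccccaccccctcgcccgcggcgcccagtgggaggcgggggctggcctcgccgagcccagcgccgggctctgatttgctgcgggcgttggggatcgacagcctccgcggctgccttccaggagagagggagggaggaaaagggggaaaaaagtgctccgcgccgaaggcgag
It holds 2 matches to the GC box, which 42.6% of 35116 promoter windows of this length also match at least once, and none to CCAAT or TATAAA.

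The chains of type I collagen, the commonest collagen of bone, skin and scar, were barely expressed and did not go together. COL1A1 read 0.01 to 0.15 TPM in Huh-7 and 0.63 to 1.53 TPM in MHCC-97H, while COL1A2 read 0.41 to 0.80 TPM in Huh-7 and 0 to 0.08 TPM in MHCC-97H. Both fell under the limit of the test. Without that limit, COL1A1 was higher in MHCC-97H by 0.78 and 0.87 (adjusted p = 0.0064 and 0.0036) and COL1A2 lower, at -0.67 and -0.69 (adjusted p = 0.00047 and 0.00041). COL27A1, a fibrillar collagen of cartilage with a short helix, read 0.67 to 2.02 TPM in Huh-7 and 0.69 to 0.94 TPM in MHCC-97H. Its difference of -0.52 with si-CENPU (adjusted p = 0.034) lost its call when any of 5 libraries was left out (adjusted p 0.0526 to 0.115; Huh-7 si-CENPU replicates 1 and 3 and each MHCC-97H si-CENPU replicate), and with no limit on level (0.0636). Under trimmed-mean scaling it grew to -0.80. With si-NC it was -0.35 (adjusted p = 0.13) and not called. It was called without Huh-7 si-NC replicate 1, the least typical Huh-7 library, at -0.58 (adjusted p = 0.0067), under trimmed-mean scaling, at -0.65 (0.0030), and under quantile normalization, at -0.64 (0.0010). COL5A3, COL11A1, COL11A2 and COL24A1 stayed at or below 0.51 TPM in every library.

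Of the basement membrane collagens, COL4A1 and COL4A2, whose products combine into the common type IV collagen of nearly all basement membranes, were high in MHCC-97H and low in Huh-7. COL4A2 (ENSG00000134871; GRCh38 chromosome 13, 110305812 to 110513209, plus strand) read 78.28, 67.69 and 56.63 TPM in MHCC-97H with si-NC and 64.55, 79.97 and 60.29 TPM under si-CENPU, against 0.37 to 1.41 TPM in Huh-7. COL4A1 (ENSG00000187498; 110148963 to 110307233, minus strand) gave 10.33, 9.32 and 6.42 TPM, then 12.19, 11.73 and 7.22 TPM, against 0.09 to 0.57 TPM in Huh-7. All 6 MHCC-97H libraries lay above all 6 of Huh-7 for both genes. The line difference was 5.03 (SE 0.21, adjusted p = 1.2e-09) and 5.29 (SE 0.21, adjusted p = 7.7e-10) for COL4A2, and 2.91 (SE 0.22, adjusted p = 3.4e-07) and 3.22 (SE 0.22, adjusted p = 1.4e-07) for COL4A1. Beyond the median of all genes these were 4.53, 4.89, 2.41 and 2.81.

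The classical trimer has a pair of COL4A1 chains for each COL4A2 chain, yet the COL4A2 transcript was the more abundant in each of the 12 libraries. In MHCC-97H the ratio of COL4A2 to COL4A1 TPM ran from 5.30 to 8.82, with a median of 7.42. In Huh-7 it ran from 2.47 to 9, with a median of 4.34, on values under 1.5 TPM. TPM is scaled by the transcript models used, and the gene models of COL4A1 and COL4A2 overlap by 1422 bases on opposite strands. The strand setting of the quantification is not given in the sources used here. How these bear on the ratio was not tested.

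The genes are arranged head to head, with 126 bases between their RefSeq starts, and this stretch is shown because both genes differ between the lines and start from it (GRCh38.p14, chr13:110307158-110307283, plus strand; COL4A1 starts to its left and COL4A2 to its right). Capitals mark matches to the GC box (GGGCGG) and the CCAAT box (CCAAT), each searched on both strands.
COL4A1 and COL4A2: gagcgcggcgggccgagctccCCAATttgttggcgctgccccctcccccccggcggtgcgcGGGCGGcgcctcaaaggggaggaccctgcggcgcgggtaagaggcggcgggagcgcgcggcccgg
It is 80.2% G and C and holds 1 match to each box, which 34.6% and 21.1% of all 35116 promoter windows of this length match, and no TATAAA (5.87%). The other type IV genes are arranged likewise, COL4A4 with COL4A3 (418 bases between starts) and COL4A6 with COL4A5 (379 bases). Those pairs were low, and all of these genes lay under the limit of the test. COL4A3, COL4A4 and COL4A6 were at or below 0.42 TPM in every library. COL4A4 read 0.18 to 0.42 TPM in MHCC-97H and 0 to 0.05 TPM in Huh-7. COL4A5 read 0.20 to 0.99 TPM in Huh-7 and 0.36 to 1.07 TPM in MHCC-97H. With no limit on level, 6 of the 8 basement membrane collagens were called with si-NC, 5 higher and 1 lower in MHCC-97H. With si-CENPU 5 were, 4 higher and 1 lower. These counts include COL4A1, COL4A2 and COL18A1. Of all 30267 genes so tested, 7450 were called higher and 4099 lower with si-NC, and 6680 and 4240 with si-CENPU.

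COL18A1, whose collagen carries heparan sulfate chains and releases the fragment endostatin, was the main basement membrane collagen of Huh-7, at 94.7% of that class. It read 27.11, 37.04 and 32.77 TPM in Huh-7 with si-NC and 30.67, 26.47 and 30.22 TPM under si-CENPU. In MHCC-97H it read 17.69, 16.95 and 17.76 TPM, then 18.71, 19.87 and 17.06 TPM, below every Huh-7 library. The Huh-7 mean was 1.85-fold and 1.57-fold higher, with differences of -0.84 (SE 0.12, adjusted p = 5.7e-05) and -0.62 (SE 0.12, adjusted p = 5.8e-04). Trimmed-mean scaling made these -1.45 and -1.14. COL18A1 overlaps SLC19A1, a folate transporter gene, on the other strand. COL15A1, its closest relative, stayed at or below 0.30 TPM.

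**Figure D4:**
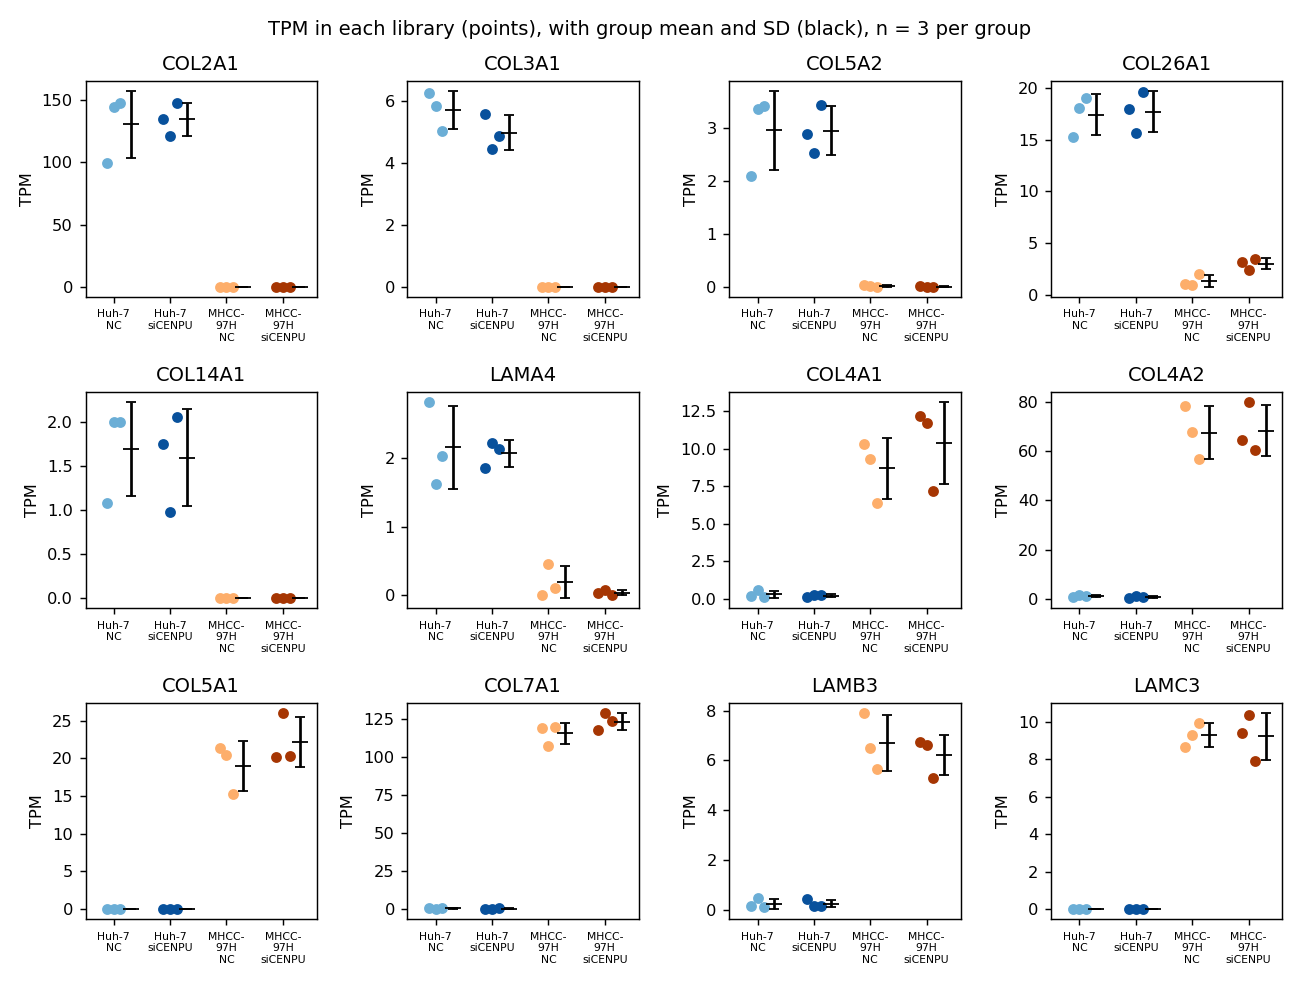
TPM in each library (points) of 12 genes that were high in a single line, with group mean and SD (black bars, n = 3), on linear axes that differ between panels. The si-NC and si-CENPU points of a line overlap in every panel except COL26A1 in MHCC-97H.

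Among the other collagens, COL7A1 was the most abundant member of MHCC-97H. Type VII collagen forms the anchoring fibrils that tie the epidermal basement membrane to the dermis. COL7A1 (ENSG00000114270; GRCh38 chromosome 3, 48564073 to 48595267, minus strand) gave 119.55, 107.72 and 120.24 TPM in MHCC-97H with si-NC and 118.03, 129.09 and 123.59 TPM under si-CENPU. In Huh-7 it read 0.77, 0.30 and 0.70 TPM, then 0.14, 0.36 and 1.08 TPM. Its mean ranked 755 among protein-coding genes in MHCC-97H, where it made up 78.7% of the TPM of other collagens. The difference was 6.21 (SE 0.20, adjusted p = 1.2e-10) and 6.40 (SE 0.20, adjusted p = 9.5e-11), or 5.72 and 5.99 beyond the median of all genes. COL12A1, a collagen that decorates fibril surfaces, also stood higher in MHCC-97H, at 4.87 to 10.97 TPM against 0.29 to 1.05 TPM, with differences of 2.39 and 2.07 (SE 0.26 each, adjusted p = 8.4e-06 and 2.8e-05).

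COL26A1, a little-studied collagen first described in testis and ovary, stood higher in Huh-7. It read 15.24, 18.00 and 18.98 TPM in Huh-7 with si-NC and 17.93, 15.60 and 19.57 TPM under si-CENPU. In MHCC-97H it read 1.06, 1 and 2.07 TPM under si-NC and 3.20, 2.40 and 3.45 TPM under si-CENPU. The Huh-7 mean was 12.6-fold higher with si-NC and 5.87-fold higher with si-CENPU, with differences of -2.98 and -2.22 (SE 0.18 each, adjusted p = 4.1e-08 and 5.6e-07). The 250 bases before the starts of COL7A1 (RefSeq, GRCh38.p14, chr3:48595330-48595579, minus strand) and COL26A1 (chr7:101362625-101362874, plus strand) are set side by side. COL7A1 leads the other collagens of MHCC-97H, and COL26A1 has the largest difference toward Huh-7 among the tested genes of that class. In Huh-7, COL9A2 made up more of the class than COL26A1 did (45.2% against 34.7%). Capitals again mark GC boxes, and in COL7A1 also TATAAA, read here from the opposite strand.
COL7A1: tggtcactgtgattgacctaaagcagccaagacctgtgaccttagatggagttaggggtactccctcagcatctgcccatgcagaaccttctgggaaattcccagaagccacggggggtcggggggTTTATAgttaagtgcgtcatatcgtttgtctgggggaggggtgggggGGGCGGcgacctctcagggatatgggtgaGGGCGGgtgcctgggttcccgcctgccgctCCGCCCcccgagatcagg
COL26A1: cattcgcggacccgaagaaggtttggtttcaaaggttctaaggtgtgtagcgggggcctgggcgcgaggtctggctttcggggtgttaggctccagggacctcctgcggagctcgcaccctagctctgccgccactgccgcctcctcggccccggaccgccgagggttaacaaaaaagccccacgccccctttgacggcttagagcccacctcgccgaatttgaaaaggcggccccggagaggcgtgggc
COL7A1 holds 3 GC boxes and 1 TATAAA match, against 42.6% and 10.7% of windows of this length with a match to each. COL26A1 holds none of these and no CCAAT, which 32.0% of windows match. Such a match describes letters and is no evidence of a bound factor.

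COL14A1, another collagen of fibril surfaces, read 1.08, 2 and 2 TPM in Huh-7 with si-NC and 1.75, 0.98 and 2.05 TPM under si-CENPU, and was listed at 0 in all 6 MHCC-97H libraries. It lay under the limit, and without that limit its differences were -1.41 and -1.35 (adjusted p = 1.4e-04 and 1.9e-04). COL9A2 and COL9A3, chains of the type IX collagen that coats type II fibrils in cartilage, were expressed without their partner COL9A1, which was at most 0.02 TPM. COL9A2 read 20.64 to 25.82 TPM in Huh-7 and 15.63 to 20.56 TPM in MHCC-97H, so the lines came close without overlapping. Its differences of -0.43 (adjusted p = 0.0028) and -0.32 (adjusted p = 0.015) grew to -1.03 and -0.83 under trimmed-mean scaling. As fitted, the second lost its call without Huh-7 si-CENPU replicate 1 (adjusted p = 0.056) or 3 (0.0569) or MHCC-97H si-CENPU replicate 1 (0.0528). COL9A3 read 1.31 to 2.90 TPM in Huh-7 and 0.49 to 1.22 TPM in MHCC-97H, with differences of -0.68 (adjusted p = 0.022) and -0.77 (adjusted p = 0.013), or -1.02 and -1.08 under trimmed-mean scaling. As fitted, the first of these lost its call without Huh-7 si-NC replicate 2 (adjusted p = 0.0664) or 3 (0.0594) or MHCC-97H si-NC replicate 1 (0.0883). The other lost it without replicate 3 of Huh-7 si-CENPU (0.0518) or of MHCC-97H si-CENPU (0.0511).

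COL6A1 was likewise expressed without its partners. It encodes a chain of type VI collagen, the beaded filament of most connective tissue, which also needs COL6A2 and COL6A3. COL6A1 read 2.49 to 3.87 TPM in Huh-7 and 1.96 to 3.30 TPM in MHCC-97H, ranges that overlap, while COL6A2 was at most 0.21 TPM and COL6A3 at most 0.04 TPM in any library. Its difference was -0.26 with si-NC (adjusted p = 0.18) and not called. It was called without Huh-7 si-NC replicate 1, at -0.40 (adjusted p = 0.043), under trimmed-mean scaling, at -0.73 (2.5e-04), and under quantile normalization, at -0.67 (3.7e-04). With si-CENPU it was -0.50 (adjusted p = 0.018), or -0.90 under trimmed-mean scaling. As fitted, this lost its call without Huh-7 si-CENPU replicate 2 (0.0547) or MHCC-97H si-CENPU replicate 1 (0.0714). COL16A1, a minor collagen associated with fibrils, read 0.66 to 1.88 TPM and 0.95 to 2.64 TPM and was not called, at 0.27 (95% interval -0.30 to 0.84) and 0.33 (-0.24 to 0.90); its sign with si-NC turned under trimmed-mean scaling, at -0.12, and quantile normalization, at -0.10.

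The laminins differed between the lines in each kind of chain. LAMA5, the alpha chain of the most widespread adult epithelial laminins, was the leading chain in both. It read 24.56, 29.73 and 28.63 TPM in Huh-7 with si-NC and 31.23, 25.62 and 27.00 TPM under si-CENPU. In MHCC-97H it read 105.48, 94.55 and 104.87 TPM, then 94.44, 101.64 and 94.17 TPM, above every Huh-7 library. This was 3.68-fold and 3.46-fold higher in MHCC-97H, with differences of 1.84 and 1.76 (SE 0.10 each, adjusted p = 1.6e-08 and 2.5e-08). These were 1.35 and 1.36 beyond the median of all genes, and 1.21 and 1.23 under trimmed-mean scaling.

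The other alpha chains were lower. LAMA1, the alpha chain of the earliest embryonic laminin, read 4.19, 3.40 and 2.22 TPM in MHCC-97H with si-NC and 2.93, 3.04 and 2.53 TPM under si-CENPU, and at most 0.01 TPM in Huh-7. Its differences were 2.07 and 1.93 (SE 0.17 each, adjusted p = 5.1e-07 and 9.4e-07). LAMA4, known from vessel walls, ran the other way, at 1.63 to 2.82 TPM in Huh-7 and at most 0.46 TPM in MHCC-97H, with differences of -1.41 and -1.57 (SE 0.18 each, adjusted p = 2.5e-05 and 1.0e-05). LAMA3, the alpha chain of the anchoring laminin of skin, read 0.12 to 0.45 TPM in Huh-7 and 0.38 to 1.10 TPM in MHCC-97H.

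LAMA2, the alpha chain of muscle laminin, was the most variable member. It read 2.21, 7.03 and 19.66 TPM in MHCC-97H with si-NC and 2.60, 6.61 and 7.78 TPM under si-CENPU. In Huh-7 it was listed at 0 in the 3 si-NC libraries and in si-CENPU replicate 1, and stood at 1.60 and 1.79 TPM in the other si-CENPU libraries. Values several-fold apart within a group gave an SE of 0.61. The difference was 3.02 with si-NC (adjusted p = 9.1e-04), running from 2.34 without MHCC-97H si-NC replicate 3 to 3.69 without replicate 1 of that group. With si-CENPU it was 1.68 (adjusted p = 0.028), and the call was lost without Huh-7 si-CENPU replicate 1 (1.21, adjusted p = 0.12) or MHCC-97H si-CENPU replicate 2 (0.0831) or 3 (0.0925), under trimmed-mean (0.0853) and quantile (0.0844) scaling, and with no limit on level (0.064).

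Of the beta chains, LAMB1, the partner in most embryonic and many adult laminins, was the leading beta chain of both lines. It read 11.57, 21.42 and 23.66 TPM in Huh-7 with si-NC and 19.76, 15.30 and 21.92 TPM under si-CENPU. In MHCC-97H it read 14.82, 11.54 and 9 TPM, then 8.73, 10.12 and 8.94 TPM. The lines overlapped with si-NC, through Huh-7 replicate 1, and not with si-CENPU. The difference was -0.95 with si-CENPU (SE 0.25, adjusted p = 0.0052). With si-NC it was -0.60 (SE 0.25, adjusted p = 0.046), a call that 13 of 24 alternatives did not keep. These included leaving out any of 9 libraries (adjusted p 0.0536 to 0.174: Huh-7 si-NC replicates 2 and 3, Huh-7 si-CENPU replicates 1 and 3, MHCC-97H si-NC replicates 2 and 3 and each MHCC-97H si-CENPU replicate). Without Huh-7 si-NC replicate 1 it grew to -0.90. Under trimmed-mean scaling the differences were -1.20 with si-NC (adjusted p = 2.6e-05) and -1.45 with si-CENPU (5.5e-06). LAMB1 overlaps DLD, a mitochondrial dehydrogenase gene, on the other strand.

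LAMB2, the beta chain of the kidney filter and the nerve-muscle junction, read 8.81, 9.66 and 9.25 TPM in Huh-7 with si-NC and 7.35, 8.84 and 9.73 TPM under si-CENPU. In MHCC-97H it read 5.09, 4.41 and 4.11 TPM, then 5.59, 5.14 and 9.41 TPM. The si-NC libraries of the lines were apart, at -0.89 (SE 0.19, adjusted p = 0.0011), or -1.44 under trimmed-mean scaling. With si-CENPU the lines overlapped through MHCC-97H replicate 3, at -0.36 (adjusted p = 0.11), which was not called. It was called without that library, at -0.59 (adjusted p = 0.0032), under trimmed-mean scaling, at -0.82 (0.0060), and under quantile normalization, at -0.70 (0.014). LAMB3, the beta chain of the anchoring laminin of skin, read 7.90, 6.50 and 5.67 TPM in MHCC-97H with si-NC and 6.75, 6.62 and 5.31 TPM under si-CENPU, against 0.09 to 0.48 TPM in Huh-7. Its differences were 2.64 and 2.54 (SE 0.17 each, adjusted p = 7.2e-08 and 1.0e-07). LAMB4 stayed at or below 0.13 TPM.

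Of the gamma chains, LAMC1, the partner in most laminins, was shared by the lines at 3.99 to 7.47 TPM in Huh-7 and 3.96 to 7.32 TPM in MHCC-97H. It was not called, with differences of -0.01 (95% interval -0.52 to 0.50) and -0.19 (-0.70 to 0.32). Relative to the rest of the transcriptome it was lower in MHCC-97H: with trimmed-mean scaling the values were -0.56 (adjusted p = 0.0044) and -0.64 (adjusted p = 0.0019), and with quantile normalization -0.44 (0.019) and -0.53 (0.0071). LAMC3, a rarer gamma chain described in brain and retina, read 8.68, 9.32 and 9.93 TPM in MHCC-97H with si-NC and 9.42, 10.36 and 7.89 TPM under si-CENPU, and at most 0.03 TPM in Huh-7. Its differences were 3.36 and 3.33 (SE 0.12 each, adjusted p = 3.9e-10 and 4.1e-10), or 2.87 and 2.93 beyond the median of all genes.

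Transfection with si-CENPU left these genes with no called change. None of the 24 tested members was called in Huh-7, where 0.00902% of all tested genes were (1 of 11088), none in MHCC-97H (0.00902%) and none for the difference between the lines' responses (0.00902%). At an unadjusted limma p below 0.05 there were 0 members in Huh-7 against 4.57% of all genes, 3 in MHCC-97H against 3.42%, and 1 for the difference against 3.45%. With no limit on level, 53 members were tested and none was called in any of these 3 comparisons. The si-NC and si-CENPU values did not overlap for 0 of 24 members in Huh-7 (7.65% of all genes) and for 3 of 24 in MHCC-97H (6.95%). The members' median change came to 0.01 for Huh-7 and -0.01 for MHCC-97H, against 0.01 and -0.05 for all genes.

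The 3 members with separate groups in MHCC-97H were COL26A1, COL9A2 and LAMB2, and each was higher with si-CENPU. COL26A1 stood at 1.38 ± 0.601 TPM under si-NC and 3.02 ± 0.548 TPM under si-CENPU (SD, n = 3), which is 2.19-fold. On the log2 scale this was 0.78 (SE 0.18, 95% interval 0.38 to 1.17), with an unadjusted limma p of 0.0013 and an adjusted p of 0.70, which ran from 0.159 to 1 over the 24 alternatives. In Huh-7 its change was 0.02 (-0.37 to 0.42), and the difference between the lines, 0.75, had an unadjusted limma p of 0.013 and an adjusted p of 0.999. COL9A2 stood at 16.0 ± 0.458 TPM under si-NC and 19.0 ± 1.37 TPM under si-CENPU in MHCC-97H (SD, n = 3), a change of 0.23 (0.01 to 0.46, limma adjusted p = 1). LAMB2 changed by 0.44 there (0.03 to 0.85, limma adjusted p = 1), and by 0.20 without MHCC-97H si-CENPU replicate 3, its highest library of that line.

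The intervals say how much change these libraries leave room for. In Huh-7, 23 of the 24 members had a 95% interval inside ±1 on the log2 scale and 13 inside ±0.5, and in MHCC-97H 22 and 11 did. The wide intervals were those of LAMA2, at 0.95 (-0.39 to 2.29) in Huh-7 and -0.38 (-1.72 to 0.96) in MHCC-97H, and, reaching past 1, that of COL26A1 in MHCC-97H. For the leading genes the changes were 0.06 (-0.28 to 0.40) for COL2A1 and -0.14 (-0.39 to 0.12) for COL18A1 in Huh-7. In MHCC-97H they were 0.09 (-0.34 to 0.53) for COL7A1, 0.02 (-0.44 to 0.47) for COL4A2, 0.22 (-0.11 to 0.54) for COL5A1 and -0.07 (-0.29 to 0.15) for LAMA5. The COL5A1 change came to 0.07 without MHCC-97H si-NC replicate 3, its lowest library of that line.

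**Figure D5:**
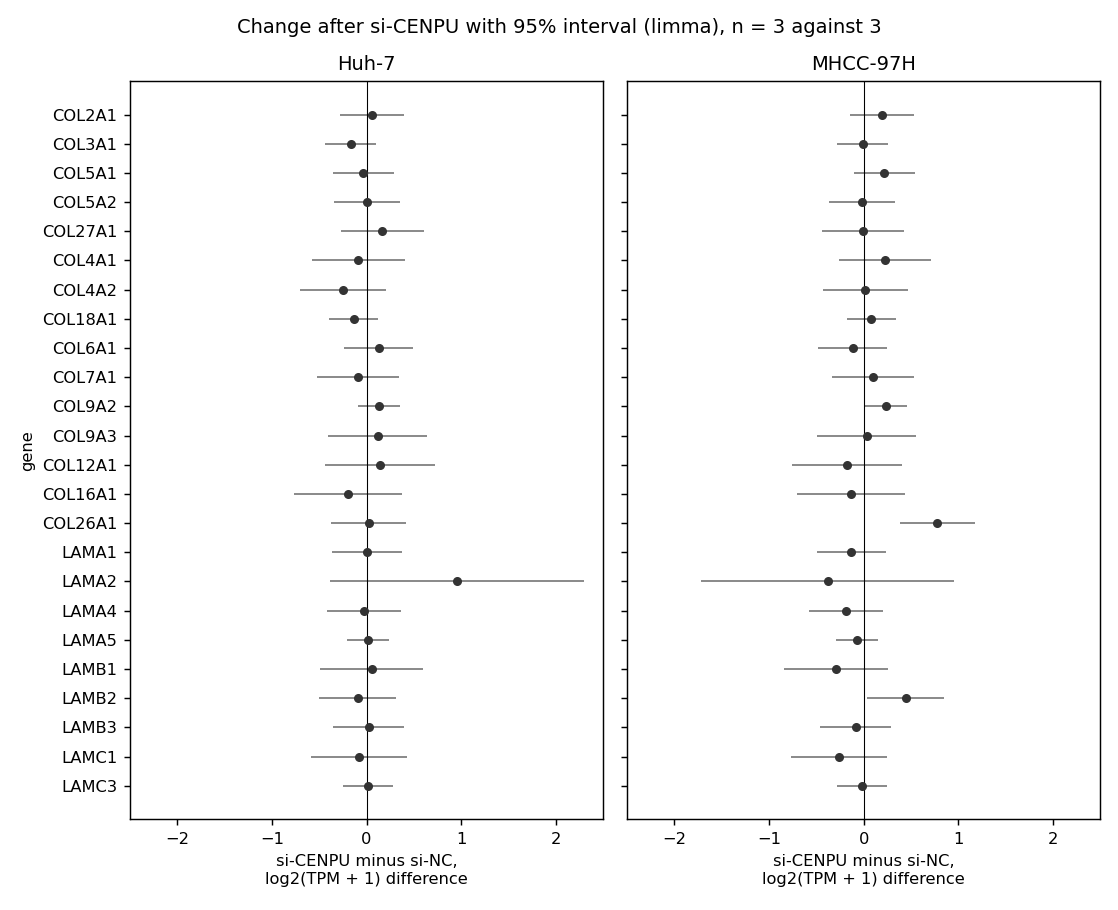
Change with si-CENPU against si-NC in log2(TPM + 1) for the 24 tested genes (points) with 95% limma intervals (bars), in Huh-7 (left) and MHCC-97H (right). Most intervals include 0; COL26A1 in MHCC-97H lies farthest from it for its width, and LAMA2 has the widest interval in both lines.

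Genes that make, trim, hold and break down these chains were taken from fixed lists, and none of them was called with si-CENPU in either line (0 of 20 tested genes of collagen making, 0 of 8 for trimming and crosslinking, 0 of 8 basement membrane partners, 0 of 9 receptors and 0 of 9 for matrix breakdown). At an unadjusted limma p below 0.05 there were 0 of these in Huh-7, against 4.57% of all tested genes, and 3 in MHCC-97H, against 3.42%. Between the lines, 73% of all tested genes were called with si-NC (50.1% higher and 22.9% lower in MHCC-97H) and 70.1% with si-CENPU (46.2% higher and 23.9% lower), so a call in a list is no mark of that list. Of the 20 genes of collagen making, 12 were called with si-NC, 8 higher and 4 lower in MHCC-97H, and 10 with si-CENPU, 5 higher and 5 lower. Both counts are shares below those of all genes. The differences of list genes are as fitted, and the median of all tested genes (0.49 with si-NC and 0.40 with si-CENPU) is not taken off. FKBP10, a prolyl isomerase that assists procollagen folding, stood at 54.81 to 64.42 TPM in MHCC-97H and 4.24 to 5.87 TPM in Huh-7 (differences 3.28 and 3.28). P3H4, a partner of collagen lysyl hydroxylation, differed by 2.81 and 2.5 and COLGALT1, which adds galactose to collagen, by 1.68 and 1.62. P3H3, from the same complex as P3H4, was listed at 0 in all MHCC-97H libraries and read 3.41 to 5.89 TPM in Huh-7.

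Of the 8 tested genes of trimming and crosslinking, 7 were called in each comparison, 5 higher and 2 lower in MHCC-97H, against 73% and 70.1% of all genes called. LOXL2, a lysyl oxidase that crosslinks type IV collagen among others, read 12.78 to 24.78 TPM in MHCC-97H and 0.19 to 0.56 TPM in Huh-7 (4.04 and 3.69). PXDN, which forms the sulfilimine crosslink of type IV collagen, read 4.63 to 8.30 TPM against 0 to 0.07 TPM (2.96 and 2.83). LOXL1, known for elastin crosslinking, differed by 2.28 and 2.73, and BMP1, which cleaves procollagen ends, by 1.84 and 1.80. The 2 called lower in MHCC-97H were LOX and TLL1. LOX read 0.33 to 0.85 TPM there and 2.76 to 4.42 TPM in Huh-7. TLL1 read 0.03 to 0.17 TPM in MHCC-97H and 1.64 to 3.17 TPM in Huh-7.

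Of 8 tested basement membrane partners 6 were called in each comparison, 4 higher and 2 lower, a share close to the 73% and 70.1% of all genes. NID1, the nidogen that bridges laminin and type IV collagen, read 7.27 to 13.14 TPM in Huh-7 and at most 0.05 TPM in MHCC-97H, differences of -3.50 and -3.62. FBLN1, a fibulin, differed by 1.51 and 1.54, and AGRN, the heparan sulfate proteoglycan agrin, by 0.92 and 1.21. SMOC1, a calcium-binding matrix protein, differed by 1.27 with si-NC and TINAGL1, a basement membrane glycoprotein, by 0.81 with si-CENPU. The lines were also apart under the other treatment. With si-CENPU, SMOC1 read 2.37 to 3.25 TPM in MHCC-97H and 0.64 to 0.97 TPM in Huh-7. With si-NC, TINAGL1 read 84.69 to 101.03 TPM in MHCC-97H and 55.63 to 60.5 TPM in Huh-7.

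Of 9 tested receptors 7 were called with si-NC (6 higher, 1 lower) and 6 with si-CENPU (5 higher, 1 lower), against 73% and 70.1% of all genes. ITGA3, the alpha subunit of a laminin-binding integrin, read 15.37 to 21.19 TPM in MHCC-97H and 0.94 to 2.14 TPM in Huh-7 (3.13 and 2.75). BCAM, a receptor for the LAMA5 chain, was lower in MHCC-97H, at 10.55 to 15.28 TPM against 50.53 to 67.58 TPM (-2.25 and -2.08). DAG1, dystroglycan, differed by 1.5 and 1.42 and CD151, a partner of laminin-binding integrins, by 0.67 and 0.77. Much of the CD151 difference lies within the median of all tested genes, 0.49 and 0.40. Of 9 tested genes of matrix breakdown 8 were called in each comparison, 5 higher and 3 lower, where 73% and 70.1% of all genes were called. TIMP1, an inhibitor of matrix metalloproteinases, read 506.89 to 583.65 TPM in MHCC-97H and 2.09 to 4.24 TPM in Huh-7 (7.23 and 7.10), and MRC2, an uptake receptor for collagen fragments, differed by 2.81 and 2.88. MMP14 and MMP15, membrane-bound metalloproteinases, were lower in MHCC-97H, at -3.99 and -3.95 and at -3.31 and -3.19.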

How the data were processed

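RNA of 12 cell line libraries was sequenced, 3 per group, with groups and replicate numbers taken from the sample titles. The authors deposited TPM per gene, made with HISAT2 and StringTie on GRCh38.p13 per the submitters' processing notes. Tool versions, annotation release, strand setting and filters (not given in the sources used here) cannot be stated. Of the 24 tested members, 16 overlap a gene on the other strand; if strand was not used in the quantification, reads of such pairs cannot be told apart. Symbols matched 60447 of 60664 identifiers. Coordinates came from GENCODE 29, sequences from RefSeq (GRCh38.p14; 41 of the 56 members matched).

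Deposited values were transformed to log2(TPM + 1), a pseudocount of 1. Genes averaging 1 TPM or more across the libraries were fitted with limma 3.58.1 in R 4.3.3, with 1 mean per group, empirical Bayes moderation and a mean-variance trend. Tests were two-sided, with Benjamini-Hochberg adjustment within each contrast. The fit was checked on simulated data. Alternatives were trimmed-mean and quantile scaling, pseudocounts of 0.1 and 0.5, a limit of 5 TPM or none, the groups of a comparison alone, no trend, the replicate block, a GC correction, both together and leaving out each library; protein-coding genes only was added after seeing the data.

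Members and lists were chosen with earlier results of these data known. Named are CENPU, all tested members, other members reaching 1 TPM, those next to the limit, and up to 4 genes per matrix list and contrast by smallest p; further members under 1 TPM named as partner chains were chosen after their values were seen. LOX and TLL1 were likewise named after their values were seen. In the si-CENPU contrasts no list gene was called and none is named. The level of 1 laminin member is not reported here. Plots used matplotlib 3.10.9 (Python 3.11.15).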

Additional observations from a re-analysis of the deposited data

How the results depend on the processing

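With si-CENPU, no member was called in either line or for the difference of responses under any of the alternatives run, so those counts stayed 0; a fit of a comparison's own groups gives no value for the difference. Between the lines, the main counts were 20 with si-NC and 21 with si-CENPU. Requiring a mean of 5 TPM gave 10 and 9, because only 11 members were then tested. Without a filter the counts were 25 and 26 of 53. Of all 30267 genes then tested, 7450 were called higher and 4099 lower in MHCC-97H with si-NC. With si-CENPU these were 6680 and 4240. Leaving out a library gave 18 to 22 called members with si-NC and 18 to 21 with si-CENPU, and 0 throughout for the 3 comparisons of si-CENPU. Of 1126 values of line differences, 1073 kept direction and side of the threshold, 35 lost a call, 13 gained one and 5 turned sign, all of them in members that were not called. These were COL16A1 with si-NC, at -0.12 with trimmed-mean scaling and -0.10 with quantile normalization, and LAMC1 with si-NC, which ran from -0.24 without Huh-7 si-NC replicate 1 to 0.14 when MHCC-97H si-NC replicate 3 was left out, with 0.14 and 0.06 on leaving out replicates 2 and 3 of Huh-7 si-NC. The cause was not tested. All changes of call fell in 8 members: COL6A1, COL9A2, COL9A3, COL27A1, LAMA2, LAMB1, LAMB2 and LAMC1. All 258 values of the si-CENPU response kept their side.

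With the replicate number as a block, the counts were 0, 0 and 0 for si-CENPU, and 19 and 21 between the lines, where LAMB1 with si-NC lost its call; with a GC correction added they were 20 and 21. Whether the numbers pair the samples is not settled here. Deviations of same-numbered si-NC and si-CENPU libraries correlated at -0.03, -0.09 and 0.03 in Huh-7 and -0.03, -0.09 and 0.13 in MHCC-97H. Not every library correlated best with its own number. With 3 libraries per group, deviations from a group mean are tied to each other, so these values cannot decide the pairing. Libraries also deviated with transcript GC content, with Spearman rho from -0.53 to 0.48, and the GC correction, for which 98.9% of tested genes had a value, left 20 and 21 calls. Depth is unknown, so values near 0 cannot be separated from failed estimates.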

Other observations

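COL2A1, the most abundant member of Huh-7, is known from cartilage, so other genes known from cartilage were looked up; they were chosen after the values of the members were seen. SOX9, a transcription factor needed for cartilage formation and also a bile duct marker, read 4.04 to 8.44 TPM in the 6 Huh-7 libraries and at most 0.06 TPM in MHCC-97H. MATN3, a matrilin of cartilage matrix, read 0.70 to 2.29 TPM in Huh-7 and 0.08 to 0.30 TPM in MHCC-97H. SOX6 read 0.58 to 0.96 TPM and 0.03 to 0.29 TPM, and SOX5 at most 0.51 and 0.11 TPM. The core proteoglycan gene ACAN and its link protein gene HAPLN1 were listed at 0 in all 12 libraries, and COMP, MATN1 and CNMD were at or below 0.16 TPM.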
